A study of Mus musculus with 4 samples.

Results

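The 10 genes described here are inhibitory receptors of myeloid cells and the phosphatases that act below them. They are the receptor genes Siglec1, Siglece, Cd33, Pirb, Lilrb4a, Pilra, Cd300a and Cd300lf and the phosphatase genes Ptpn6 and Inpp5d, named as a group by function, with no threshold on a measured value. Each symbol was matched to its Ensembl identifier, which found all 10 among the 54532 rows of the count table, and all 10 were among the 16451 genes tested.

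RNA sequencing was performed on tumor-associated macrophages (TAMs) isolated with CD11b and F4/80 magnetic beads from NB9464 tumors, a murine MYCN-amplified neuroblastoma model. All mice were on the C57BL/6 background, received NB9464 cells subcutaneously, had no treatment, and were sampled on day 40. Syk MC-WT libraries (M7 and M8) came from control mice, and Syk MC-KO libraries (M9 and M10) from mice with floxed Syk and a lysozyme M (LysM) Cre transgene, so that deletion is limited to cells in which the lysozyme M promoter is active. Syk is the kinase that carries signals from activating receptors, and the comparison asks how TAM transcripts differ with the myeloid Syk genotype. Mice of both genotypes were 4 to 6 weeks old when the tumor cells were injected. Nothing states that the libraries of a genotype came from separate mice, so p-values measure the spread between these libraries, which may be technical. The labels name both TAMs and bone marrow-derived macrophages as the source of the RNA, and the series is titled as an adoptive transfer experiment.

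The targeted gene went against the labels. Syk, on chromosome 13, had 765 (M7), 569 (M8), 4033 (M9) and 2944 (M10) counts, so it was higher where the label is Syk MC-KO. Levels in TMM-normalized CPM (counts divided by library sizes that edgeR corrects by a trimmed mean of M values) were 25.5 ± 3.35 and 178 ± 25.02 (SD, n = 2 each), a log2 fold change of 2.80 ± 0.19 (SE, edgeR adjusted p = 0.000674). Which exons carried the reads was not analysed here, so the deletion itself was not checked, and every direction below is that of the libraries as labelled. Total counts were 20755886 to 23518045 per library. The share of mitochondrial counts was 2.20% and 2.34% in M7 and M8, 6.00% in M9 and 15.9% in M10. Libraries of 1 genotype differed by more than counting noise (chi-square over genes divided by its degrees of freedom, 50.6 for M7 with M8 and 168 for M9 with M10).

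Inhibitory receptors of this kind carry an immunoreceptor tyrosine-based inhibitory motif (ITIM) in the cytoplasmic tail. When Src family kinases phosphorylate its tyrosine, the motif recruits the protein tyrosine phosphatase SHP-1, encoded by Ptpn6, or the lipid phosphatase SHIP-1, encoded by Inpp5d, which oppose the signals that Syk transmits from ITAM-bearing receptors and their adaptors. Many of these receptors have an activating relative with a nearly identical ectodomain and a short tail, which pairs with an ITAM adaptor such as DAP12 (Tyrobp).

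To see which receptors carry the motif that gives the group its name, coding sequences of GENCODE M21 transcripts were searched for an ITIM (isoleucine, valine, leucine or serine, any residue, tyrosine, any 2 residues, then isoleucine, valine or leucine). The search also covered the related switch motif (ITSM: threonine, any residue, tyrosine, any 2 residues, then valine or isoleucine). The tail was taken as the codons after the last hydrophobic stretch of 19 residues. By the transcript with the longest coding sequence, a tail ITIM was found in 6 of the 8 receptors. Pirb had 3, Lilrb4a, Cd300a and Cd300lf had 2 each, and Siglece and Pilra had 1 each, while Siglece, Pilra and Cd300lf also had 1 ITSM each. The longest Cd33 transcript has 0 codons after its hydrophobic stretch, so no tail match was possible there. Of 7650 genes with such a hydrophobic stretch, 26.1% had an ITIM match after it. The 18 bases around 1 ITIM tyrosine of each of these 6 receptors, the Siglece ITSM tyrosine and the Cd33 tail tyrosine are shown on the coding strand, from the mm10 (GRCm38) genome, with the tyrosine codon in capitals.

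Siglece ITIM: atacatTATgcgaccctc
Pilra ITIM: atcgtgTATgcttccatc
Pirb ITIM: gtgaccTATgcccagctg
Lilrb4a ITIM: attgtcTACgcccaggta
Cd300a ITIM: gtggaaTATagcacattg
Cd300lf ITIM: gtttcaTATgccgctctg
Siglece ITSM: acggagTACtcagagata
Cd33 tail tyrosine: caggagTACtcagagatc

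In the order printed, these stretches lie in coding exons at chr7:43651585-43651602 (minus strand), chr5:137823571-137823588 (minus), chr7:3712786-3712803 (minus), chr10:51496021-51496038 (plus), chr11:114899846-114899863 (plus), chr11:115117112-115117129 (minus), chr7:43651516-43651533 (minus) and chr7:43528865-43528882 (minus). The remaining receptors, Siglec1 and Cd33, had no tail match in the full-length Siglec1 transcript and in the Cd33 transcripts described below. For these transcripts, that goes against their description as ITIM receptors. The full-length Siglec1 transcript, of 1701 codons, ends in a tail of 32 codons with 0 tyrosines. Its shorter transcripts, of 346 and 1605 codons, have 320 and 1153 codons after their last hydrophobic stretch and 1 match each in them, so what counts as the tail differs between transcripts. Cd33 has 2 transcripts of 334 codons with a tail of 62 codons, whose only tyrosine is the one printed and matches neither motif, and a longer transcript of 403 codons that ends in its hydrophobic stretch. A search of letters does not show what a tail binds. The activating relatives that were searched, Lilr4b, Pira2, Pilrb1, Pilrb2, Cd300lb and Cd300ld, had 0 tail ITIMs, although the aligned coding bases of Lilrb4a and Lilr4b were 96.0% identical and those of Pirb and Pira2 94.6%. The map of tail tyrosines shows these tails to scale.

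**Figure D1:**
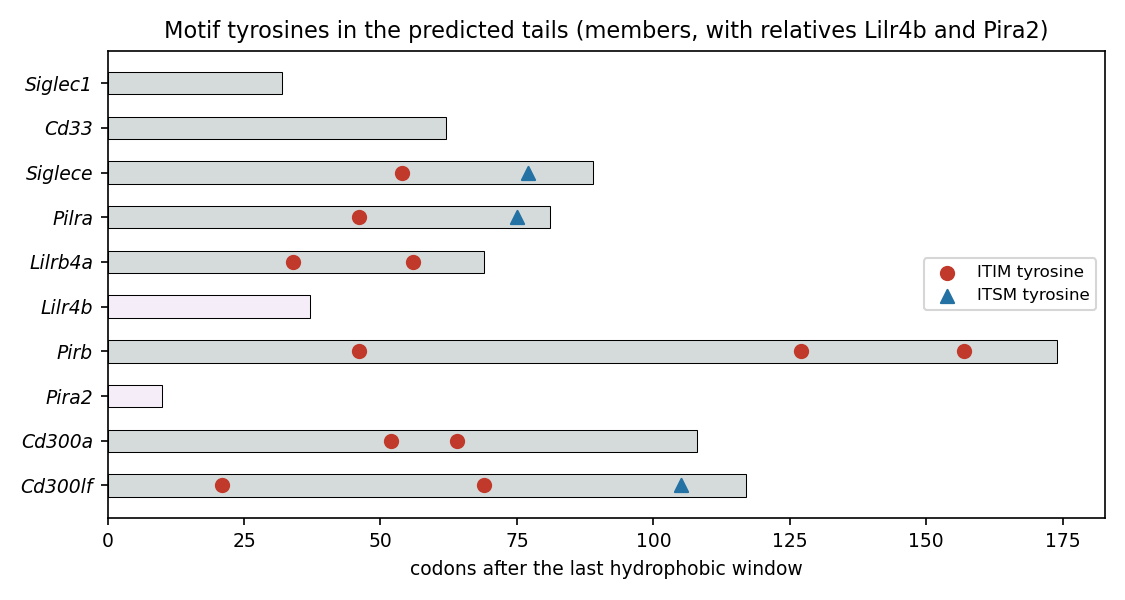
Predicted cytoplasmic tails of the 8 receptors (grey bars) and of the activating relatives Lilr4b and Pira2 (pale bars), with the x axis in codons after the last hydrophobic stretch. Circles mark ITIM tyrosines and triangles ITSM tyrosines. The Siglec1 tail (32 codons) and the Cd33 tail (62 codons, from its 334-codon transcripts) hold neither mark, whereas Pirb has 3 ITIM tyrosines.

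Under TMM scaling, M9 and M10, labelled Syk MC-KO, had higher levels of all 10 genes (edgeR adjusted p under 0.05), where 22.7% of all tested genes were called higher and 16.7% lower. In all 10, both Syk MC-KO libraries lay above both Syk MC-WT libraries, as did 38.0% of all tested genes. The log2 fold changes ran from 1.69 (Siglec1) to 5.68 (Pilra), with a median of 2.91 against 0.02 over all genes. Macrophage markers moved with the group. All 10 of 10 were called higher and none was at 0 in any library. Their median log2 fold change was 3.01, from a summed 670 to 971 CPM in the Syk MC-WT libraries to 5080 to 8001 CPM in the Syk MC-KO libraries. In these bulk samples, fewer cells of a type and less RNA per cell cannot be told apart. Of the 10 genes, only Pilra and Siglece kept a higher direction when libraries were scaled to macrophage markers and to pan-leukocyte genes. An exact two-sided permutation test of 1 gene cannot go below p = 0.333 with these 4 libraries.

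**Figure D2:**
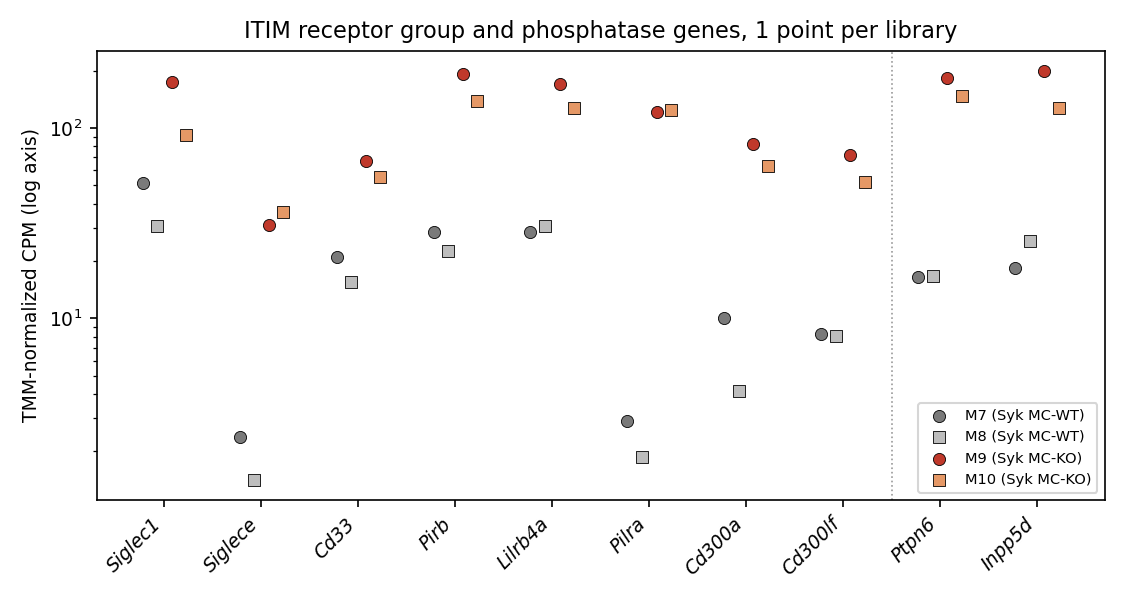
TMM-normalized CPM (log axis) of the 8 receptor genes, left of the dotted line, and the phosphatase genes, right of it, with 1 point per library. For every gene the points of M9 and M10 (Syk MC-KO) lie above those of M7 and M8 (Syk MC-WT), and Pilra has the widest gap, from 1.87 to 2.88 CPM up to 121.6 to 123.7 CPM. The marker-scaled values, in which most genes do not keep this order, are plotted separately.

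Among the sialic acid-binding lectins, Siglece rose furthest. Siglece encodes Siglec-E, an inhibitory Siglec of mouse myeloid cells, on chromosome 7 (43651070 to 43660161). It had 2.37 and 1.42 CPM in M7 and M8 and 30.97 and 36.2 CPM in M9 and M10. The groups did not overlap, and the means of 1.897 ± 0.67 and 33.6 ± 3.72 CPM (SD, n = 2 each) differed by a log2 fold change of 4.14 ± 0.31 (SE, edgeR adjusted p = 0.000729). The Syk MC-WT values rest on 65 and 35 counts.

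Cd33 encodes another sialic acid-binding Siglec and lies near Siglece on chromosome 7 (43524216 to 43544428). It had 21.04 and 15.6 CPM in the Syk MC-WT libraries and 67.0 and 55.1 CPM in the Syk MC-KO libraries. This gap was narrower, with a log2 fold change of 1.74 ± 0.21 (edgeR adjusted p = 0.00231).

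Siglec1 encodes sialoadhesin (CD169), an adhesion receptor of tissue macrophages, on chromosome 2 (131069220 to 131086765). It had 51.6 and 30.6 CPM in M7 and M8 and 174.6 and 91.4 CPM in M9 and M10, so libraries of the same genotype were far apart. The log2 fold change was 1.69 ± 0.37 (edgeR adjusted p = 0.0146). The estimate was 2.12 without M7 and 1.06 without M9, and the call was lost without M8 (1.36, adjusted p = 0.0524, from a fit in which M7 alone stands for its genotype and is assumed to vary like the other libraries) and with library sizes as the only scaling (1.18, adjusted p = 0.0605). Under TMM, Siglec1 and Cd33, without a tail ITIM match in the transcript with the longest coding sequence, thus had the smallest changes of the 10. This observation was made after the values were seen. For Cd33 that transcript has 0 tail codons and could hold no match, and the tail of its 334-codon transcripts had none. With macrophage-marker scaling the values of Siglec1 and Cd33, -1.12 and -1.04, were the lowest of the 10 but not the smallest in size.

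The immunoglobulin-like receptors Pirb and Lilrb4a had intermediate changes. Pirb encodes PIR-B, the mouse counterpart of human LILRB receptors, which binds MHC class I, and lies on chromosome 7 (3711409 to 3720391). It had 28.4 and 22.7 CPM in M7 and M8 and 192.8 and 137.8 CPM in M9 and M10, a log2 fold change of 2.69 ± 0.23 (edgeR adjusted p = 0.000929). Lilrb4a encodes gp49B, an inhibitory receptor of mast cells and macrophages, on chromosome 10 (51490956 to 51496611). It had 28.6 and 30.4 CPM in the Syk MC-WT libraries and 169.8 and 127.5 CPM in the Syk MC-KO libraries. Its log2 fold change was 2.33 ± 0.20 (edgeR adjusted p = 0.000898).

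Pilra stood apart by size. It encodes the paired immunoglobulin-like type 2 receptor alpha, which recognizes sialylated O-glycans on proteins, on chromosome 5 (137821952 to 137836281). Counts were 79 and 46 in M7 and M8 and 2505 and 2271 in M9 and M10, or 2.88, 1.87, 121.6 and 123.7 CPM. The Syk MC-KO libraries were thus nearly equal, and the fitted difference was 51.3-fold, a log2 fold change of 5.68 ± 0.25 (edgeR adjusted p = 0.000486), the 45th largest increase among the 16451 genes tested.

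The CD300 receptors, which bind lipids of cell membranes, lie on chromosome 11. Cd300a (114890041 to 114904654) had 10.1 and 4.15 CPM in the Syk MC-WT libraries and 82.2 and 62.8 CPM in the Syk MC-KO libraries. Its Syk MC-WT libraries were the least alike of the group, and the log2 fold change of 3.35 ± 0.41 (edgeR adjusted p = 0.00237) was 4.12 without M7 and 2.84 without M8. Cd300lf (115116214 to 115133992) had 8.24 and 8.06 CPM against 71.8 and 52.1 CPM. Its log2 fold change was 2.93 ± 0.22 (edgeR adjusted p = 0.000729).

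Both phosphatase genes were higher as well. Ptpn6, on chromosome 6 (124720707 to 124738714), had 16.5 and 16.6 CPM in M7 and M8 and 183.8 and 146.8 CPM in M9 and M10. The log2 fold change was 3.32 ± 0.19 (edgeR adjusted p = 0.000486), the smallest SE among the 10 genes. Inpp5d, on chromosome 1 (87620312 to 87720507), had 18.4 and 25.5 CPM against 198.8 and 127.5 CPM, a log2 fold change of 2.89 ± 0.28 (edgeR adjusted p = 0.00131).

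The widely expressed isoenzymes did not follow them. Ptpn11, which encodes SHP-2, had 116 ± 10.5 and 104.2 ± 4.32 CPM (SD, n = 2), and its log2 fold change of -0.16 ± 0.16 missed the threshold (edgeR adjusted p = 0.450). Inppl1, which encodes SHIP-2, had 126.5 ± 1.902 and 100.3 ± 14.7 CPM, with a log2 fold change of -0.33 ± 0.17 (edgeR adjusted p = 0.159). Within a library, a ratio of 2 genes is free of the scaling. The log2 ratio of Ptpn6 to Ptpn11 counts was -2.90 and -2.71 in M7 and M8 and 0.78 and 0.54 in M9 and M10. That of Inpp5d to Inppl1 was -2.79 and -2.29 against 0.84 and 0.50. The mean ratio was thus higher in the Syk MC-KO libraries by 3.47 (Ptpn6 to Ptpn11) and 3.22 (Inpp5d to Inppl1) on the log2 scale, and the genotypes did not overlap. The fibroblast marker list moved the opposite way under TMM, 5 of 8 lower and 0 higher, where 16.7% and 22.7% of all tested genes were. Its median log2 fold change was -1.44 and its summed level 12550 to 14440 CPM in M7 and M8, above that of the macrophage markers, against 4060 to 4959 CPM in M9 and M10. The part of this list in these ratios was not tested.

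Most directions depended on the scaling. When libraries were scaled to the geometric mean of the 10 macrophage markers, 2 of the 10 genes were called higher (0.796% of all genes) and 2 lower (87.1% of all genes). Pilra had a log2 fold change of 2.96 (edgeR adjusted p = 5.07e-07) and Siglece 1.45 (adjusted p = 0.0281), while Siglec1 had -1.12 (adjusted p = 0.0316) and Cd33 -1.04 (adjusted p = 0.0476). The others lay between -0.50 (Lilrb4a) and 0.64 (Cd300a) and were not called, and Syk itself had 0.013 (adjusted p = 0.980). Scaled to 6 pan-leukocyte genes, Pilra alone was called higher (2.11, adjusted p = 4.14e-05), where 0.334% of all genes were, while Siglece had 0.59 (adjusted p = 0.312). The 5 genes called lower were Siglec1 (-1.96), Cd33 (-1.88), Lilrb4a (-1.33), Pirb (-0.95) and Inpp5d (-0.81), where 92.8% of all genes were called lower. Both scalings moved the zero line far. The median of all genes became -2.76 with the macrophage markers and -3.60 with the pan-leukocyte genes, and the median of the 10 genes lay above it by 2.81 and 2.83, against 2.89 under TMM. The order of the genes, from Pilra at the top to Siglec1 and Cd33 at the bottom, was common to the 3 scalings, since a scaling shifts the genes of a library alike.

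**Figure D3:**
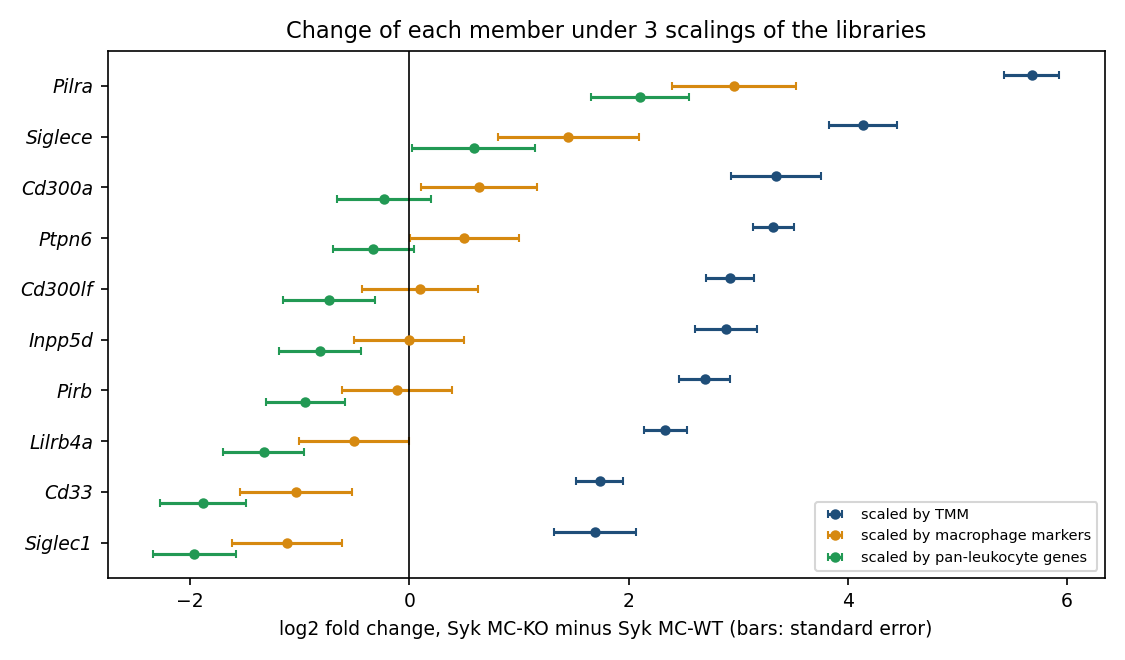
Log2 fold change of each gene, Syk MC-KO minus Syk MC-WT, with libraries scaled by TMM (blue), macrophage markers (orange) and pan-leukocyte genes (green), and bars of 1 standard error. All blue points lie above 0, whereas Pilra and Siglece alone lie above 0 in all 3 scalings and Siglec1 and Cd33 lie furthest below 0 in the marker scalings.

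The mixture of receptor transcripts, which no scaling of a library can move, differed between the genotypes. Per exon length, Pilra made up 3.37% and 2.88% of the 8 receptors' transcripts in M7 and M8 and 20.1% and 25.3% in M9 and M10. Siglece had 4.63% and 3.67% in M7 and M8 against 8.54% and 12.4% in M9 and M10. Siglec1 had the opposite order, with 26.1% and 20.4% against 12.5% and 8.09%, as did Cd33, with 9.78% and 9.55% against 4.39% and 4.49%. Pirb, at 22.9%, 24.2%, 22% and 19.5% in M7 to M10, was also lower in M9 and M10 per exon length. So was Lilrb4a, at 19.8%, 27.7%, 16.6% and 15.4%, while Cd300a, at 7.67%, 4.17%, 8.85% and 8.39%, was higher. Without the division by length, Pirb was instead higher in M9 and M10, at 18.5%, 19.8%, 21.2% and 20.1% in M7 to M10. Lilrb4a then had 18.66% and 26.47% in M7 and M8 against 18.64% and 18.56% in M9 and M10. Cd300lf alone overlapped between the genotypes per exon length, at 5.78%, 7.45%, 7.11% and 6.40%. Without the division by length it did not overlap and was higher in M9 and M10, at 5.38%, 7.02%, 7.88% and 7.59% in M7 to M10. Shares of a common total are not independent of each other, and no test was run on them.

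**Figure D4:**
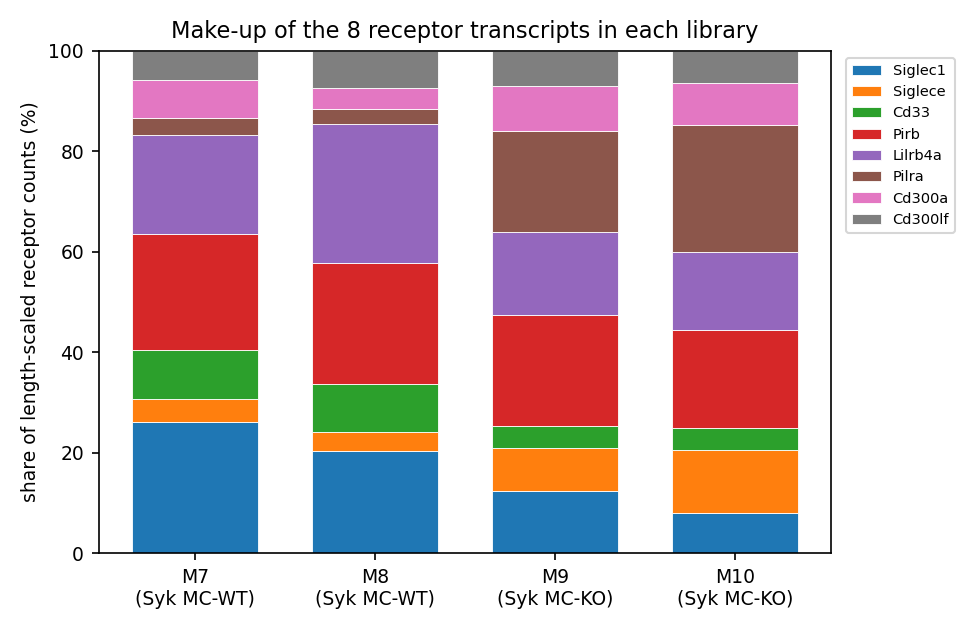
Share of each receptor (%) in the length-scaled counts of the 8 receptor genes, with 1 stacked bar per library. The Pilra band widens from 2.88% to 3.37% in the Syk MC-WT libraries to 20.1% to 25.3% in the Syk MC-KO libraries, and the Siglec1 band narrows from 20.4% to 26.1% down to 8.09% to 12.5%.

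On the length-scaled level (TPM, counts divided by summed exon length and set to a common total), Ptpn6 was the highest of the 10 genes in M8, M9 and M10 and the 3rd in M7, at 23.6, 22.8, 144.2 and 86.7 in M7, M8, M9 and M10. Pilra was the 10th of 10 in both Syk MC-WT libraries, at 3.73 and 2.33, and the 3rd and 2nd in M9 and M10, at 86.5 and 66.3. Siglec1 moved from 1st and 4th to 6th and 8th. In the Syk MC-KO libraries, the mean level of Pirb was 72.9 ± 31.01 and that of Pilra 76.4 ± 14.3 (SD, n = 2), neighbours in the order that did not differ beyond their spread. Exon length is that of all annotated exons of a gene and understates levels where a short transcript dominates.

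Relative to Ptpn6 within each library, Pilra had log2 count ratios of -2.51 and -3.13 in M7 and M8 and of -0.60 and -0.25 in M9 and M10. Siglece was also nearer to Ptpn6 in the Syk MC-KO libraries (-2.57 and -2.02 against -2.79 and -3.52). Siglec1 went from 1.64 and 0.88 to -0.07 and -0.68, and Cd33 from 0.35 and -0.09 to -1.46 and -1.41. Cd300a overlapped between the genotypes, at -0.71 and -1.99 against -1.16 and -1.23. Pirb, Lilrb4a and Cd300lf were lower relative to Ptpn6 in the Syk MC-KO libraries without overlap, with mean differences of -0.63, -0.99 and -0.40. The receptors therefore did not keep a constant proportion to Ptpn6 across the libraries.

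Reads of some members can be divided among near-identical genes, and the counts are estimates of how. Of the 31-base words of Lilrb4a transcripts, 56.1% also occur in another gene. The nearest relative, Lilr4b, had 1252, 1058, 6181 and 3365 counts in M7, M8, M9 and M10 and a log2 fold change of 2.45 (edgeR adjusted p = 0.00161), and a transcript model spanning both loci, Gm49339, had 736, 573, 5101 and 2444 counts. Lilrb4a took 23.7% to 31.4% of the sum of the 3 rows, whose log2 fold change was 2.56 ± 0.27, near that of Lilrb4a alone. Pirb shared 44.1% of its words, mostly with Pira genes and related models, and took 70.6% to 74.6% of a sum of 10 rows, and the log2 fold change was 2.69 for the sum as for Pirb alone. Pilra shared 28.5%. Pilrb1 had 10, 6, 242 and 200 counts, Pilrb2 had 15, 19, 261 and 208, and the sum of the 3 rows gave a log2 fold change of 5.45 ± 0.21. Pilra overlaps Zcwpw1 on the opposite strand over 14.0% of its words, and Zcwpw1 had 156, 157, 139 and 144 counts. Where strand is not used in counting, reads of the overlapping stretch cannot be told apart, and Zcwpw1 had more counts than Pilra in M7 and M8. Ptpn6 shares 5.78% with the antisense model Gm20531, which had at most 1 count in a library. The levels of Lilrb4a, Pirb and Pilra as single genes are uncertain to this extent, while each sum had the same direction and call as its member.

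Activating receptors of the same and related families, not all of them partners of the 8 receptors, were also compared. Under TMM scaling all 17 tested (of 18 found in the table) were higher, where 22.7% of all tested genes were. Their median log2 fold change of 3.56 became 0.74 with macrophage-marker and -0.10 with pan-leukocyte scaling. Still called higher were 5 with macrophage-marker scaling (0.796% of all genes) and 2 with pan-leukocyte scaling (0.334%), and 0 were called lower by either (87.1% and 92.8% of all genes). The most abundant, Clec4n, which encodes the lectin Dectin-2, had a log2 fold change of 3.56, Cd300ld 3.17 and Clec4a1 3.02. Pilrb1 and Pilrb2, the activating partners of Pilra, had 5.18 and 4.18 (edgeR adjusted p = 0.000834 and 0.00103). Pira2, a partner of Pirb, had 2.89. The adaptors that these receptors use were all 3 higher, at 3.64 for Fcer1g, 3.21 for Tyrobp and 3.001 for Hcst, and their median of 3.21 became 0.38 and -0.45 under the marker scalings. Pilra with Pilrb1 and Pilrb2, and Pirb with Pira2, thus moved the same way under TMM.

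Other inhibitory receptors were higher under TMM in 14 of 17 tested and lower in 0, where 22.7% and 16.7% of all tested genes were. Their median of 2.99 became 0.18 and -0.66 under the marker scalings. Macrophage-marker scaling called 1 higher and 2 lower (0.796% and 87.1% of all genes), and pan-leukocyte scaling 1 higher and 4 lower (0.334% and 92.8%). Fcgr2b, the inhibitory Fc receptor that recruits SHIP-1, had a log2 fold change of 2.77 and Sirpa, the receptor for CD47, 3.14. Pecam1, an adhesion receptor of endothelium and leukocytes, had -0.09 (edgeR adjusted p = 0.665) and Siglecg, a Siglec of B cells, -0.43 (adjusted p = 0.516), and neither was called. Tigit, a receptor of lymphocytes, was the remaining gene not called, at 1.52 (adjusted p = 0.116).

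Among 18 other phosphatases, kinases and adaptors of the pathway, 14 were higher under TMM and 0 lower, where 22.7% and 16.7% of all tested genes were. Their median of 1.85 became -0.99 and -1.82 under the marker scalings. Macrophage-marker scaling called 1 higher and 9 lower (0.796% and 87.1% of all genes), and pan-leukocyte scaling 0 higher and 12 lower (0.334% and 92.8%). Ptprc, the CD45 phosphatase of leukocytes, had a log2 fold change of 2.99. Genes not called included Ptpn11 and Inppl1, described above, and the widely expressed adaptor gene Grb2 (0.14). The plot of related gene lists sets the member receptors, with a median of 2.81, beside these lists.

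**Figure D5:**
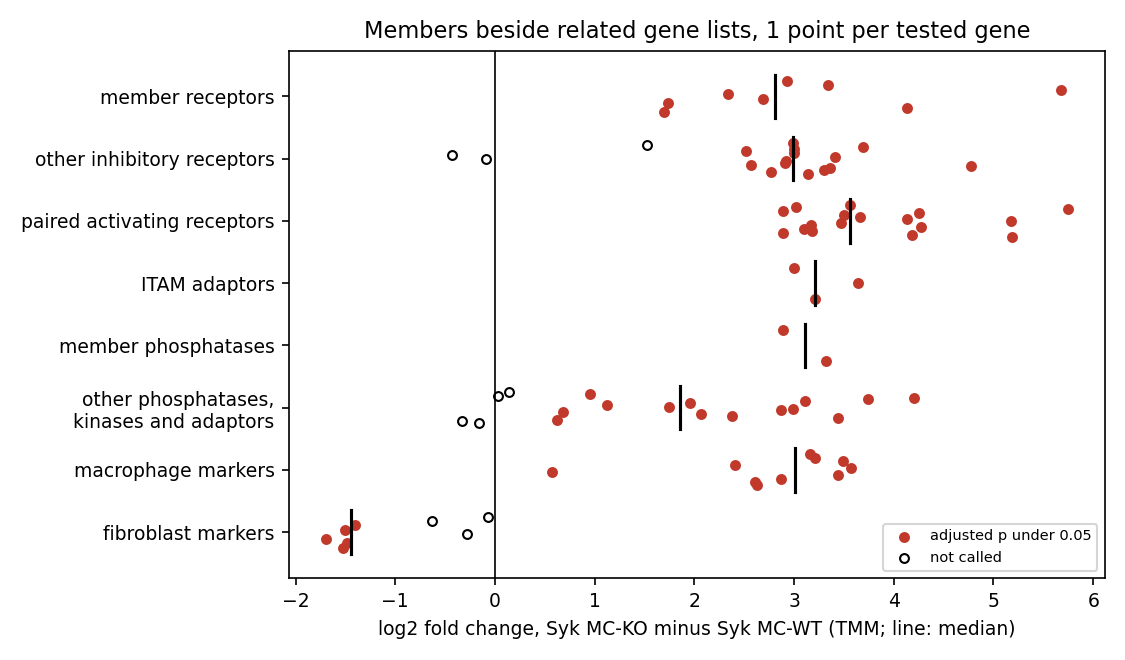
Log2 fold change under TMM of each tested gene in the member groups, related lists and the macrophage and fibroblast marker lists, with filled points for genes called by edgeR and lines at list medians. Medians are 2.99 for other inhibitory receptors, 3.56 for activating receptors, 3.01 for macrophage markers and -1.44 for fibroblast markers, and those of the receptor and pathway lists fall to between -1.82 and 0.74 under the marker scalings.

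Markers of other leukocytes also moved. Under TMM, where 22.7% of all tested genes were called higher, so were all 6 tested neutrophil markers. Of the 7 listed, Ly6g did not pass the count filter, with 2, 0, 5 and 1 counts in M7 to M10. The summed level of the 7 was 29.5 to 42.7 CPM in Syk MC-WT and 232 to 464 CPM in Syk MC-KO libraries. Also called higher were 4 of 6 T cell, 1 of 3 B cell, 1 of 2 natural killer cell and 4 of 6 dendritic cell markers, but 0 of 3 mast cell and basophil markers. Neither marker scaling called any of these markers higher. The neutrophil median log2 fold change was 0.34 with macrophage-marker and -0.46 with pan-leukocyte scaling, and the T cell median 0.14 and -0.72. Summed T cell markers were 4.52 to 9.33 CPM in Syk MC-WT and 31.7 to 55.1 CPM in Syk MC-KO libraries, most of it from Cd4 (means of 5.845 and 37.9 CPM), and the means of Cd3e, Cd3d, Cd3g, Cd8a and Trac were each at most 1.845 CPM. Of the 8 endothelial markers, 3 were lower and 0 higher under TMM, where 16.7% of all tested genes were lower. All 8 were lower under both marker scalings, as were 87.1% and 92.8% of all genes. Of 3 tested tumor cell markers 1 was higher under TMM and 0 under the marker scalings. Hand2, a transcription factor gene of sympathoadrenal and some mesenchymal cells, had means of 281.5 and 232.2 CPM in the Syk MC-WT and Syk MC-KO libraries. The mouse gene Mycn, the one called higher, had 21.8 and 36.4 CPM. Th and Dbh, enzyme genes of sympathoadrenal cells, were at 0 counts in all 4 libraries. The part of all these cell markers in the results for the 10 genes was not tested.

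Promoter sequences (250 bases before to 50 after the annotated start, RefSeq, GRCm38.p6) were found for 8 of the 10 genes, without Siglec1 and Lilrb4a. They were searched on both strands for GAGGAA, the core of sites for the myeloid transcription factor PU.1, and for GAAANNGAA, a repeat found in interferon response elements. The PU.1 core was present in 7 of the 8, all except Ptpn6, and in 28.3% of 32851 mouse promoters. The repeat was present in Pilra and Cd300lf and in 8.56% of promoters. The promoters of these genes and of Ptpn6 are shown because they hold both motifs or neither, with matches in capitals, at chr5:137836229-137836528 (minus strand), chr11:115133943-115134242 (minus) and chr6:124738660-124738959 (minus).

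Pilra promoter: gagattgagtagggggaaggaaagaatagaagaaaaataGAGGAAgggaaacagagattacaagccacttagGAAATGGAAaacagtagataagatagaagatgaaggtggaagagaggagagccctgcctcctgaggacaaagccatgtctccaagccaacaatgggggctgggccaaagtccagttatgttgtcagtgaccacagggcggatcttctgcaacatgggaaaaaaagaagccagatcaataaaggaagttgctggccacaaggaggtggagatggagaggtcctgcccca
Cd300lf promoter: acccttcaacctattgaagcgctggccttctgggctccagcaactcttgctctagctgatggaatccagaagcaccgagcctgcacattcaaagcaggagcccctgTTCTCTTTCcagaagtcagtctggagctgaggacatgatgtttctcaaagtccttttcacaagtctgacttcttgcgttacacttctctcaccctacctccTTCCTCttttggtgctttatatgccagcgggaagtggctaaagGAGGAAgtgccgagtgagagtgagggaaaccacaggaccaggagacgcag
Ptpn6 promoter: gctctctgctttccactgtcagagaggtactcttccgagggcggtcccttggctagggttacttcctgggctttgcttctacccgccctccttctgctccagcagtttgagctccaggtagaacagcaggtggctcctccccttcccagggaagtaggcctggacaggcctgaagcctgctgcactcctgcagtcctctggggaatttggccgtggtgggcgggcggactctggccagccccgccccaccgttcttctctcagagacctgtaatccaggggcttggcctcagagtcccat

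In Pilra the PU.1 core begins 211 bases and the repeat 178 bases before the annotated start. Ptpn6, without either match, had a log2 fold change of 3.32, larger than the 2.93 of Cd300lf, which has both. A match is a run of letters and not a known site.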

How the data were processed

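PolyA RNA sequencing gave 2 libraries per genotype (paired reads of 150 bases in the labels, whereas the methods describe triplicates). The authors deposited whole-number counts per Ensembl gene, not normalized. The submitters' processing notes name STAR 2.6.1d, Salmon 1.4.0, SAMtools 1.9, Picard 2.26, MultiQC 1.11 and mm10. How Salmon's estimates became whole counts, and whether strand was used, is not given in the sources used here.

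Symbols, positions and lengths came from GENCODE M21, which matched 54495 of 54532 rows. In R 4.3.3, genes passing edgeR 4.0.16 filterByExpr were compared by glmQLFit and glmQLFTest on all 4 libraries, with TMM scaling and Benjamini-Hochberg adjustment over 16451 genes at a threshold of 0.05. TMM factors were 1.22, 1.19, 0.876 and 0.787 in M7 to M10. Ratios used counts plus 0.5. A count of 3 was taken as the detection floor (0.109 to 0.164 CPM). Floors and counts cover counting error only. The fit was tested on simulated counts. Alternatives were DESeq2 1.42.0, other scalings and filters, summed relatives and leaving out each library. A sum over all genes sharing at least 5% of a member's 31-base words was added after seeing the data. Hydrophobic stretches were windows with a mean hydropathy of at least 1.6.

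The members and gene lists were chosen with earlier results of these data known. Text names all members and Syk, and from each list the 3 most abundant genes, relatives of members and genes that moved against their list. Any other gene named was chosen after its values were seen. Of the listed activating receptors, 6 Pira symbols were not matched by symbol and were not analysed as list members. Values of some listed genes are not reported here.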

Additional observations from a re-analysis of the deposited data

How the results depend on the processing

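All 10 members stayed higher and past the threshold with DESeq2 size factors, the DESeq2 Wald test, both other count filters, mitochondrial and ribosomal RNA-like genes left out, and relatives summed. Leaving out 1 library gave 9 to 10 members called higher (9 without Syk MC-WT replicate 8, when Siglec1 was lost), 0 to 0 called lower (8.58% to 28.9% of all genes higher and 4.69% to 27.4% lower), and a Syk log2 fold change of 2.56 to 2.95. Each of these fits takes its spread from the genotype that keeps both libraries, with the lone library assumed to vary alike, so they bear little on stability. Macrophage-marker scaling gave 2 higher and 2 lower, with Syk at 0.013 and reversed directions for Siglec1 (-1.12), Cd33 (-1.04), Pirb (-0.11), Lilrb4a (-0.50) and Inpp5d (-0.0026). Pan-leukocyte scaling gave 1 higher and 5 lower, with Syk at -0.83 (adjusted p = 0.0304 by edgeR) and reversed directions for Siglec1 (-1.96), Cd33 (-1.88), Pirb (-0.95), Lilrb4a (-1.33), Cd300a (-0.23), Cd300lf (-0.73), Ptpn6 (-0.33) and Inpp5d (-0.81). These scalings shift every gene alike, and the median of the members above that of all genes was 2.81 and 2.83, against 2.89 under TMM. With library sizes alone the median of all genes was -0.52. No paired analysis was possible because no 2 libraries share a replicate number. The low Syk MC-WT counts of Siglece and Pilra (35 to 79) limit their fold changes.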

Other observations

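Genes that make or trim sialic acid, which Siglecs and Pilra recognize, were mixed under TMM scaling. Of 19 tested, 7 were higher, 2 lower and 10 not called, where 22.7% of all genes were higher and 16.7% lower. Their median on the log2 scale, 0.56, became -2.28 with macrophage-marker and -3.12 with pan-leukocyte scaling, both above the medians of all genes (-2.76 and -3.60). Nans, a sialic acid synthase gene, had 63.5 ± 6.00 CPM in the Syk MC-WT and 98.6 ± 9.75 CPM in the Syk MC-KO libraries (SD, n = 2 each), a log2 fold change of 0.63 (edgeR adjusted p = 0.0243), and Neu1, a lysosomal sialidase gene, had 0.89 (adjusted p = 0.00754). The sialyltransferase gene St3gal2 fell by 1.112 on the log2 scale (adjusted p = 0.00311), and Cmah, whose enzyme makes the N-glycolyl form of sialic acid that some Siglecs prefer, fell by 1.65, from 25.3 ± 3.05 to 8.05 ± 0.40 CPM (adjusted p = 0.00277).

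The list of ligand genes was not limited to ligands of the 8 receptors, and holds Cd47, whose product Sirpa binds. Of 7 tested, 5 were higher and 2 lower under TMM, where 22.7% and 16.7% of all tested genes were. Macrophage-marker scaling called 0 higher and 3 lower (0.796% and 87.1% of all genes) and pan-leukocyte scaling 0 higher and 7 lower (0.334% and 92.8%). Apoe, an apolipoprotein bound by LILRB4, had a log2 fold change of 2.03, and B2m, the light chain of the MHC class I ligands of Pirb, 1.92. Angptl2, a secreted ligand of Pirb, fell by 1.19 (edgeR adjusted p = 0.00241), from 128.5 ± 5.77 to 56.4 ± 0.26 CPM, and Mfge8, which bridges phosphatidylserine to phagocytes, fell by 1.495 (adjusted p = 0.00184), from 380.0 ± 16.7 to 134.8 ± 9.07 CPM. Fibroblast markers were lower as well, 5 of 8 called (median -1.44 on the log2 scale), and their part in these values was not tested.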
